A study of Mus musculus with 9 samples.

Results

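Primary mouse knee chondrocytes were cultured on a stiff ECM gel or under normal conditions, and their transcripts were compared on a 1-colour array in 6 of the 9 samples of the series, 3 on stiff ECM and 3 in normal culture. The other 3 samples, on a soft ECM gel, entered the same model and are given where they place a change against the softer gel. The cells came from articular cartilage of 1-day-old Kunming mice by collagenase digestion and were grown in monolayer in high-glucose DMEM with fetal bovine serum. The gels were polyacrylamide coated with type I collagen, of 100 kPa for stiff ECM and 500 Pa for soft ECM, and all 9 labels give 24 h, whereas a figure legend of the study names a later time. The labels name no treatment other than the substrate. The surface under the normal cells was not given in the sources used here. Stiffness, gel chemistry and any other difference from the normal culture can therefore not be told apart in stiff minus normal. The genes were read from 24942 of 26423 probes, those with a value above 0 in all 9 samples. Of these, 10473 were bright, with a mean log2 intensity of 8.3 or more over the 9 samples. The bright probes were the brightest probe of 9114 of the 18295 genes tested. Below, a gene stands for its brightest probe, a change is the log2 intensity on stiff ECM minus that in normal culture, and a gene rose or fell if limma's moderated test, adjusted by the Benjamini-Hochberg method over all 24942 probes, gave an adjusted p under 0.05.

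Articular chondrocytes make a matrix of type II collagen and aggrecan under the transcription factor Sox9. Plated on a rigid surface they tend to lose this programme and to take on fibroblast-like features, with stress fibres and type I collagen. Cells feel substrate stiffness through integrins and focal adhesions, which act through actin, through the coactivators YAP and TAZ and, in the question this study asked, through the Wnt and beta-catenin pathway. Skeletal muscle, tendon and synovium lie next to the knee cartilage, and newborn muscle carries myoblasts that fuse into contractile myotubes in culture.

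Sample medians over the probe table ran from 124 to 179 in normal culture, from 166 to 175 on stiff ECM and from 137 to 150 on soft ECM. On bright probes, Pearson's correlation of log2 intensity between samples, across probes that are not independent replicates, was 0.988 to 0.992 within normal, 0.979 to 0.989 within stiff ECM and 0.957 to 0.981 between them. Of 10 chondrocyte markers 8 were bright, among them Col2a1, Acan, Sox9, Comp and Prg4, while Matn1 and Cnmd were dim in every sample. Markers of skeletal muscle were bright as well: 13 of 14 were, among them Acta1 at 17871 to 32837 in all 9 samples. The summed intensity of the 10 chondrocyte markers was 19398 to 21612 in normal culture and 9517 to 11044 on stiff ECM, and 4 of them fell. The sum over the muscle markers was 170506 to 193948 in normal culture and 130823 to 140255 on stiff ECM, and that over the 6 fibroblast markers was 98586 to 114336 against 77527 to 80280. Endothelial and erythroid markers had no bright probe, and the olfactory receptor probes, used as a gauge of silent genes, had sample medians of 27.9 to 48.5 in normal culture, 37.7 to 42.2 on soft ECM and 54.6 to 57.4 on stiff ECM. In such bulk samples, fewer cells of a type and less RNA per cell cannot be told apart.

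Among all tested probes 1197 rose (4.8%) and 1281 fell (5.14%) on stiff ECM, 9.94% of those tested together, and 7488 had an unadjusted p under 0.05. The changes depended on how bright a probe was. The median change was 0.30 over dim probes and -0.11 over bright ones, and it ran from 0.61 in decile 2 of probes by brightness to -0.15 in decile 10, the brightest. Of the bright probes 415 rose (3.96%) and 1036 fell (9.89%), 13.9% together. After quantile normalization, which gives every sample the same distribution, 1117 bright probes rose (10.7%) and 1072 fell (10.2%), 20.9% together, and the median change of bright probes was -0.01. Cyclic loess gave 1078 and 1034, whereas centring each sample on its median gave 326 and 2921 and moved the median of all probes from 0.09 to -0.07. The balance of rises and falls thus turned on the scaling, while 411 bright probes rose and 839 fell both as deposited and after quantile normalization. At the level of bright genes, 3.86% rose and 9.85% fell as deposited, 13.7% together, and 10.5% rose and 9.91% fell after quantile normalization, and these shares are the background for each list count that follows. In 11.2% of bright genes all 3 stiff samples lay above all 3 normal samples, and in 25.9% all lay below. The stiff minus soft test called 2.83% of bright genes. The calls over all probes numbered 1555 without stiff replicate 1, 541 without stiff replicate 2, 639 without stiff replicate 3, 818 without normal replicate 2 and 4092 without normal replicate 3. Over bright probes they numbered 317, 468 and 519 without stiff replicate 2, stiff replicate 3 and normal replicate 2. Whether replicates came from different animals or dishes was not stated, and the p-values cover only the spread among these samples, which may be technical.

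**Figure D1:**
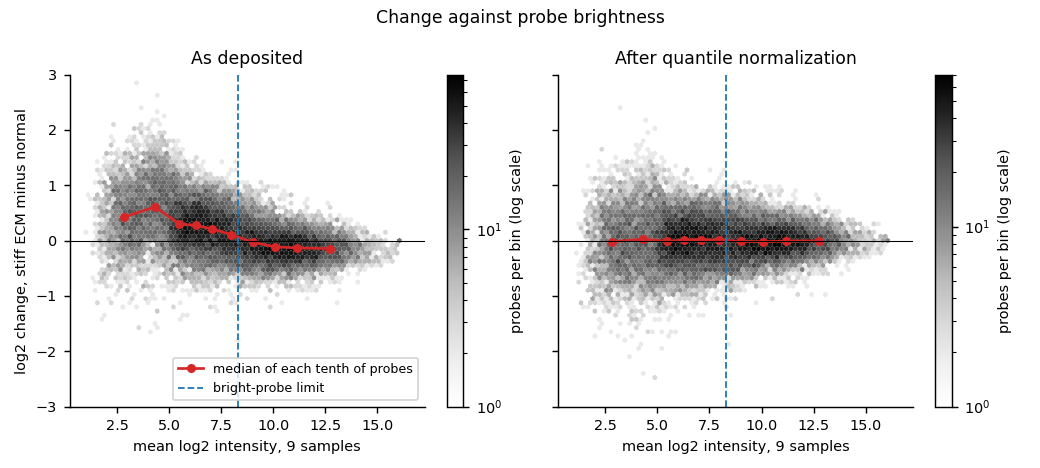
Log2 change (stiff ECM minus normal, 3 samples each) of every tested probe against its mean log2 intensity over the 9 samples, as deposited and after quantile normalization. Shading counts probes per bin on a log scale, red points are the medians of the deciles of probes by brightness, and the dashed line is the bright-probe limit of 8.3. As deposited the medians run from 0.61 in decile 2 to -0.15 in decile 10, and after quantile normalization they lie near 0.

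Skeletal muscle genes formed the largest group that fell. Of the 85 bright genes in 5 muscle lists, 57 fell and none rose, against 9.85% of bright genes that fell, and 84 had a change below 0 at any p. Their median change was -0.64, and -0.54 after quantile normalization, when 59 fell. In 67 of the 85 the stiff samples all lay below the normal samples, against 25.9% of bright genes. The muscle markers include genes of these lists, such as Myh3, Ckm, Myod1 and Ttn. Their lower summed intensity, given above, is therefore not a separate observation. That sum also holds Myl1, whose readings lay at the top of the scale. The part of muscle cell number in the fall of these genes was not tested.

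The thick and thin filament genes fell moderately. Myh3, the embryonic myosin heavy chain, had intensities of 18887, 22683 and 23592 in normal culture, 21272, 13927 and 14668 on soft ECM and 11323, 10871 and 9097 on stiff ECM, a change of -1.06 ± 0.16 (SE, n = 3 against 3, limma adjusted p = 0.00593). Every stiff sample lay below every normal and soft sample. Tnnt1, the slow skeletal troponin T, read 27018, 26837 and 31648 in normal culture and 17897, 17069 and 16473 on stiff ECM (-0.73 ± 0.10, adjusted p = 0.00493). Actn3, the fast-fibre alpha-actinin, changed by -0.78 ± 0.11, Mybph, a myosin-binding protein, by -0.92 ± 0.16 and Tnnt2, the cardiac troponin T also made in developing skeletal muscle, by -0.73 ± 0.13, with adjusted p-values of 0.00447, 0.0108 and 0.00973. In all, 6 of 10 bright fast-fibre genes and 7 of 13 slow, cardiac and developmental genes fell, and these counts were 2 and 5 without stiff replicate 2, 2 and 3 without stiff replicate 3, and 2 and 4 without normal replicate 2. Of the adult fast myosins, Myh1 fell by 0.62 (adjusted p = 0.0188; 0.0604 without stiff replicate 2, 0.0658 without stiff replicate 3 and 0.0655 without normal replicate 2), while Myh2 (-0.38, adjusted p = 0.0927) and Myh4 (-0.37, adjusted p = 0.258) did not pass. Myl1, an essential light chain of fast fibres, had a change of 0.00, but its readings of 60379 to 70053 lay at the top of the table, whose highest value is 70058, so its probe may not resolve a difference.

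The Z-disc and titin list was the most complete, with 22 of 24 bright members lower, 12 without stiff replicate 2, 13 without stiff replicate 3 and 13 without normal replicate 2. Tcap, the titin cap protein, fell most, from 1545, 2145 and 2137 in normal culture to 710, 682 and 755 on stiff ECM (-1.42 ± 0.14, adjusted p = 0.00118). On soft ECM it read 1858, 1645 and 1558, within the normal range. Csrp3, the muscle LIM protein that signals from the Z-disc, read 4549, 5258 and 5653 in normal culture, 6145, 5785 and 5850 on soft ECM and 2777, 2539 and 2240 on stiff ECM (-1.03 ± 0.11, adjusted p = 0.00194). All soft samples of Csrp3 lay above all normal samples, and all stiff samples lay below them. Pdlim3, a Z-disc LIM protein, changed by -0.88 ± 0.10 (adjusted p = 0.00234), and the ankyrin-repeat proteins Ankrd2 and Ankrd23, which bind titin, by -0.93 each (adjusted p = 0.00573 and 0.00486). Ttn, the giant spring of the sarcomere, had another pattern: 3567, 3651 and 3972 in normal culture, 1381, 1506 and 1601 on soft ECM and 1922, 1895 and 980 on stiff ECM (-1.29 ± 0.22, adjusted p = 0.00861). Both gels lay well below normal for Ttn, and Neb, the thin-filament ruler nebulin, did the same at -0.85 (adjusted p = 0.00828) with a stiff minus soft difference of 0.20. Acta1, the skeletal alpha-actin, did not pass (-0.42, adjusted p = 0.0853).

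Of the bright genes for muscle calcium handling and energy, 11 of 21 fell, 7 without stiff replicate 2, 6 without stiff replicate 3 and 7 without normal replicate 2. Mb, the oxygen store myoglobin, read 34981, 39093 and 40890 in normal culture, 34476, 30733 and 32894 on soft ECM and 20662, 19075 and 16884 on stiff ECM (-1.02 ± 0.10, adjusted p = 0.0012). Ckm, the muscle creatine kinase, read 1177, 1462 and 1643, then 1591, 1004 and 988, then 636, 600 and 593 in the same order of groups (-1.21 ± 0.18, adjusted p = 0.00593). Pgam2, the muscle phosphoglycerate mutase of glycolysis, changed by -0.94 ± 0.11 (adjusted p = 0.0025). For these 3 genes no stiff sample reached the lowest normal or soft sample. Cox6a2, the muscle subunit of cytochrome c oxidase, changed by -0.81 ± 0.14 (adjusted p = 0.00915), but a second bright probe of the gene gave 0.14 (adjusted p = 0.623). Genes of the list that did not pass included the calcium pump Atp2a2 (-0.11, adjusted p = 0.484), the glycogen phosphorylase Pygm (-0.24, adjusted p = 0.253) and the ubiquitin ligase Fbxo32 (0.45, adjusted p = 0.0944), the one gene of the 85 above 0.

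Regulators of the muscle lineage fell with the contractile genes, 11 of 17 bright ones, but 2 without stiff replicate 2 or 3 and 3 without normal replicate 2. Klhl40, which stabilises thin-filament proteins, read 914, 1266 and 1268 in normal culture and 630, 638 and 592 on stiff ECM (-0.88 ± 0.15, adjusted p = 0.00861). The myogenic factors Myod1 (-0.63 ± 0.13, adjusted p = 0.0168) and Myf6 (-0.66 ± 0.13, adjusted p = 0.0162) fell, but both calls ended without stiff replicate 2 (0.0621 and 0.0649), without stiff replicate 3 (0.0582 and 0.0581) or without normal replicate 2 (0.0617 and 0.0611). Myog, the factor of terminal differentiation, read 20764, 14832 and 22470 in normal culture and 13895, 10888 and 9371 on stiff ECM (-0.76, adjusted p = 0.0287), and its call was lost without stiff replicate 2 (0.0923), stiff replicate 3 (0.0954), normal replicate 1 (0.0808) or normal replicate 3 (0.0517). Over the 5 lists, the count of genes that fell was 28 without stiff replicate 2, 26 without stiff replicate 3 and 29 without normal replicate 2.

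Against the soft gel, 24 of the 57 muscle genes that fell also passed the stiff minus soft test, counted in either direction, where 2.83% of bright genes were called. The differences were -1.24 for Csrp3 (adjusted p = 0.00344), -1.23 for Tcap (0.012), -0.93 for Ckm (0.0377), -0.80 for Mb (0.012) and for Pgam2 (0.0123), and -0.72 for Tnnt1 (0.0141). They were 0.03 for Ttn (0.938) and 0.09 for the fast myosin Myh1 (0.698). Without stiff replicate 2, no gene described under the naming rule passed the stiff minus soft test, against 26 with all samples, and 15 passed without stiff replicate 1, 12 without stiff replicate 3 and 48 without normal replicate 1.

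**Figure D2:**
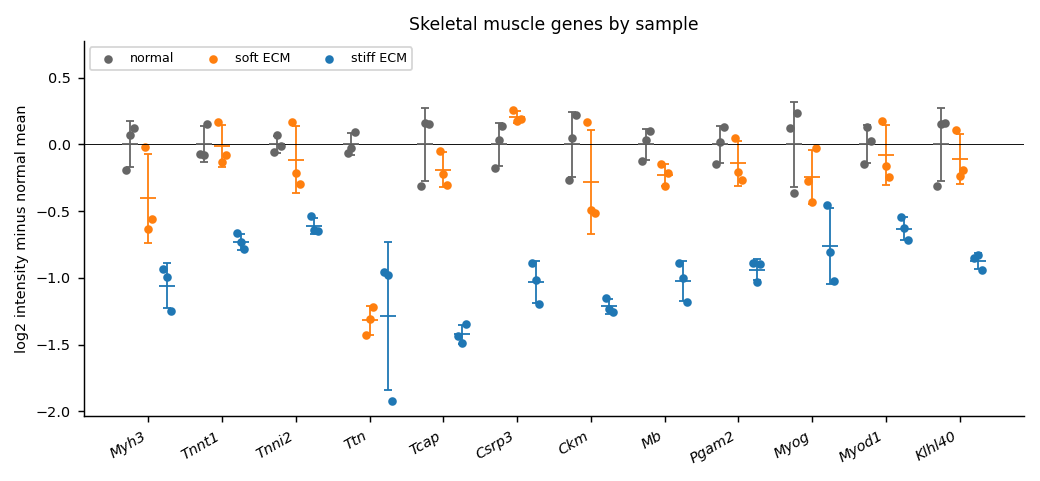
Log2 intensity minus the normal mean for 12 skeletal muscle genes in the 9 samples, with points for samples and bars for the mean ± SD of 3. The stiff samples lie below all normal samples for each gene shown. The soft mean lies nearer to the normal mean for 11 of the genes and nearer to the stiff mean for Ttn.

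Myogenic factors bind the E-box, and the promoters of the bright muscle genes were searched for it. In the 300-base window that RefSeq annotation on GRCm38.p6 gives for each gene, from 250 bases before to 50 after the start, the palindromic E-box CAGCTG, which reads the same on both strands, was found for 27 of the 61 bright muscle genes with a window, 44.3%, and for 17.6% of the 7410 bright genes with one. These shares set muscle genes beside all bright genes, not genes that fell beside genes that did not. Acta1, Myh4, Pygm and Myl1 are among the 27 and did not pass. Stretches of 60 bases upstream of the start are shown for 3 of the genes that fell, with the E-box in capitals. They lie at chr15:77022888-77022947 on the minus strand for Mb, chr7:19410844-19410903 on the plus strand for Ckm and chr11:5803889-5803948 on the minus strand for Pgam2. A match is a description of the letters and does not show binding.
Mb: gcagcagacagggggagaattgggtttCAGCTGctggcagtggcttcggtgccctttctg
Ckm: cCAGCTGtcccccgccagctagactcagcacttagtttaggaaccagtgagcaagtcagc
Pgam2: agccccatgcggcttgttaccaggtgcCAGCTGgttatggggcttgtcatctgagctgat

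Cartilage matrix genes fell in part. Col2a1, the type II collagen that defines hyaline cartilage, read 11070, 9230 and 8720 in normal culture, 3568, 3963 and 3304 on soft ECM and 4092, 3505 and 4069 on stiff ECM (-1.31 ± 0.12, adjusted p = 0.000963). All gel samples lay below all normal samples, and stiff and soft differed by 0.11 (adjusted p = 0.601). Prg4, the lubricin of the cartilage surface and synovium, read 4435, 4426 and 5489, then 3376, 4228 and 4319 on soft ECM, then 2392, 1963 and 1602 on stiff ECM (-1.28 ± 0.16, adjusted p = 0.00277). Unlike Col2a1, Prg4 was lower on stiff than on soft ECM, by -1.01 (adjusted p = 0.0171). Col9a1, a collagen on the surface of type II fibrils, changed by -0.75 ± 0.15 (adjusted p = 0.0167), but not without stiff replicate 2 (0.0709) or normal replicate 2 (0.062). In all 4 of 11 bright cartilage genes fell and none rose, with 2 lower without stiff replicate 2 and 2 without normal replicate 2.

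Other chondrocyte genes that the study follows did not pass against normal culture, whereas the study followed their proteins on stiff against soft ECM. Sox9 read 628, 730 and 815 in normal culture and 739, 618 and 612 on stiff ECM, overlapping groups with a change of -0.14 ± 0.13 (adjusted p = 0.51). Acan, the aggrecan core protein, read 1598, 694 and 1032 in normal culture and 889, 644 and 432 on stiff ECM (-0.74 ± 0.31, adjusted p = 0.144), with a wide spread within both groups. Col1a1, the type I collagen chain, had only a dim probe, at 198, 189 and 244 in normal culture and 262, 273 and 129 on stiff ECM (0.01 ± 0.26, adjusted p = 0.992). Among hypertrophy genes, Pth1r, the receptor for parathyroid hormone-related protein, fell by 0.58 (adjusted p = 0.0215; 0.0794 without stiff replicate 2, 0.0514 without stiff replicate 3 and 0.0655 without normal replicate 2), and Mmp13, the collagenase of hypertrophic cartilage, had a change of -0.01 (adjusted p = 0.986).

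The collagens and adhesive proteins of fibroblast-type matrix fell as a broader group, 11 of 18 bright genes with none higher and a median change of -0.44. After quantile normalization 9 fell, and the median change was -0.27. Col1a2, the partner chain of type I collagen, read 25850, 25984 and 29242 in normal culture, 17817, 19125 and 15799 on soft ECM and 15940, 16012 and 18555 on stiff ECM (-0.68 ± 0.10, adjusted p = 0.00593). Fn1, fibronectin, the integrin ligand, read 37386, 38154 and 38229 in normal culture and 26964, 27712 and 27505 on stiff ECM (-0.47 ± 0.08, adjusted p = 0.00812), and Col12a1, a fibril-associated collagen, changed by -0.61 ± 0.10 (adjusted p = 0.00811). In each of these genes the gel samples all lay below the normal samples, and none of the 11 passed stiff minus soft. Members that did not pass included the fibril regulators Dcn (-0.09, adjusted p = 0.506) and Lum (-0.02, adjusted p = 0.905) and the matricellular protein Sparc (-0.06, adjusted p = 0.717). The count of falls was 6 without stiff replicate 2, 5 without stiff replicate 3 and 7 without normal replicate 2.

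Of 6 bright small leucine-rich proteoglycans, which organise collagen fibrils, 3 fell, 2 after quantile normalization and 1 without stiff replicate 2. Fmod, the small proteoglycan fibromodulin, read 3838, 3449 and 3752 in normal culture, 2108, 1795 and 1859 on soft ECM and 1922, 1830 and 2028 on stiff ECM (-0.93 ± 0.10, adjusted p = 0.00174). The 3 normal samples stood apart from all 6 gel samples. P4ha3 and P4ha1, catalytic chains of the prolyl hydroxylase that stabilises the collagen helix, changed by -0.86 ± 0.10 and -0.57 ± 0.09 (adjusted p = 0.00237 and 0.00618). Of 18 bright crosslinking and hydroxylation genes 5 fell, 4 after quantile normalization, with a median change of -0.28 as deposited. The crosslinking oxidase Lox itself had a change of -0.17 (adjusted p = 0.266). The count of 5 was 2 without stiff replicate 2 and 2 without stiff replicate 3. Among 21 bright proteases and inhibitors, 4 fell, 3 after quantile normalization, against 9.85% of bright genes as deposited, including Mmp23 (-0.63 ± 0.11, adjusted p = 0.0091) and the stromelysin Mmp3 (-0.40 ± 0.08, adjusted p = 0.0161), and 1 rose, against 3.86%, Adamts15, a proteoglycan-cleaving metalloprotease (0.89, adjusted p = 0.0187). Calls for Mmp3 and Adamts15 ended without stiff replicate 2 (0.0606) and without stiff replicate 3 (0.0632), respectively, and the count of protease falls was 1 without stiff replicate 2.

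Of 17 bright genes of the BMP and TGF-beta response, 1 rose and 3 fell, 2 after quantile normalization, and the median change was -0.11 as deposited and 0.04 after quantile normalization. Tgfbi, a TGF-beta-induced protein that binds collagen and integrins, read 19898, 21094 and 22657 in normal culture, 14998, 12447 and 12349 on soft ECM and 9281, 8419 and 9299 on stiff ECM (-1.24 ± 0.10, adjusted p = 0.000963). The 3 groups did not overlap, and stiff was lower than soft by -0.56 (adjusted p = 0.0279). Tgfb3, a TGF-beta ligand, changed by -0.93 ± 0.11 (adjusted p = 0.00277), whereas Tgfb1 changed by -0.25 (adjusted p = 0.509) and the BMP readouts Id1 and Smad6 by -0.11 and -0.06 (adjusted p = 0.86 and 0.842). Bmp4 rose by 0.63 ± 0.14 (adjusted p = 0.0232), a call lost without stiff replicate 2 (0.0523), stiff replicate 3 (0.081), normal replicate 1 (0.0597) or normal replicate 2 (0.0735). Of 14 bright genes of the IGF axis 3 fell, among them Igfbp5, an IGF-binding protein, which read 4472, 6278 and 6858 in normal culture, 7720, 5717 and 6395 on soft ECM and 3535, 3649 and 3473 on stiff ECM (-0.70 ± 0.16, adjusted p = 0.0233). Leaving out any stiff replicate or normal replicate 2 ended the Igfbp5 call, at 0.0526 to 0.0735, and the count of 3 falls was 1 without stiff replicate 1 and 0 without stiff replicate 2, stiff replicate 3 or normal replicate 2.

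**Figure D3:**
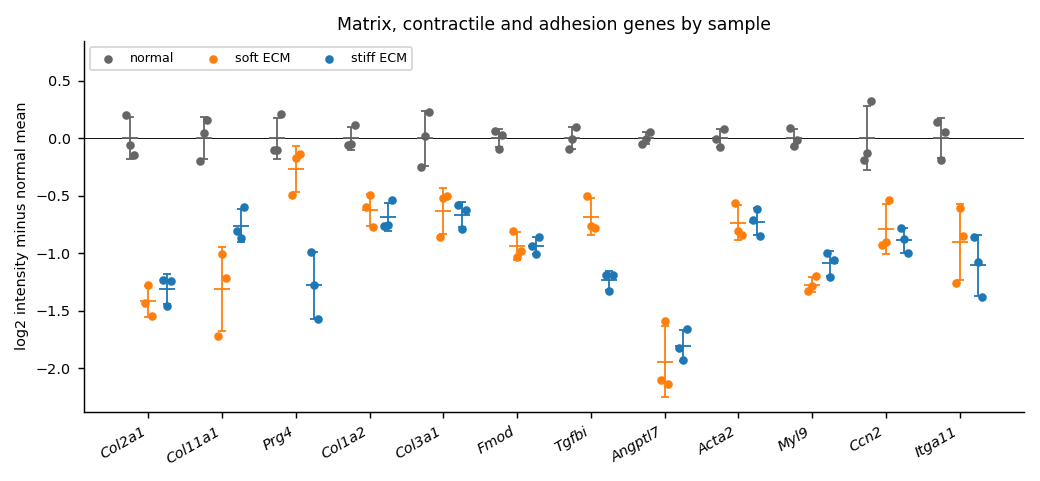
Log2 intensity minus the normal mean for 12 matrix, contractile and adhesion genes in the 9 samples, with points for samples and bars for the mean ± SD of 3. Every stiff sample lies below every normal sample for each gene shown. Soft and stiff samples lie together for Col1a2, Fmod, Acta2 and Myl9 and apart for Prg4 and Tgfbi.

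The contractile and adhesion genes by which cells hold a substrate fell in part. No member of the integrin, focal adhesion and YAP and TAZ target lists rose as deposited, and 1 of each rose after quantile normalization. Myl9, the regulatory myosin light chain of stress fibres, read 9875, 8858 and 9239 in normal culture, 3703, 3823 and 4051 on soft ECM and 4662, 4036 and 4470 on stiff ECM (-1.09 ± 0.09, adjusted p = 0.000963). Acta2, smooth muscle alpha-actin, read 25561, 24311 and 27177 in normal culture and 15666, 16760 and 14253 on stiff ECM (-0.72 ± 0.10, adjusted p = 0.0048), and a second bright probe gave -1.16. For both genes the gel samples lay below all normal samples, with stiff minus soft at 0.18 and 0.01 (adjusted p = 0.265 and 0.956). Smtn, the actin-binding smoothelin, changed by -0.66 ± 0.10 (adjusted p = 0.00512). In all 5 of 13 bright smooth-muscle-type genes fell, 3 without any 1 of the stiff replicates or without normal replicate 2, and the transcription factor Srf, which drives them, had a change of -0.23 (adjusted p = 0.108).

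Serum response factor binds the CArG box, and 4 of the 12 bright contractile genes with a promoter window held a CArG box on either strand, against 1.62% of all bright genes with a window. These shares set contractile genes listed for this factor beside all bright genes, not genes that fell beside genes that did not. The 4 are Actg1, Myl9, Srf and Vcl. Of these, Actg1 and Srf did not pass (limma adjusted p = 0.195 and 0.108). Vcl fell (0.0374), a call lost without any 1 of the stiff or normal samples (0.051 to 0.114). The CArG box of Myl9 is shown in capitals within 60 bases upstream of the start, at chr2:156775278-156775337 on the plus strand.
Myl9: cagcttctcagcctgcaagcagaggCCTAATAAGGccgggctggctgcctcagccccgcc

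Of the 11 bright integrin chains, 4 fell, 3 after quantile normalization. Itga11, a collagen-binding alpha chain, read 14045, 11167 and 13194 in normal culture, 5319, 8377 and 7088 on soft ECM and 7046, 6031 and 4897 on stiff ECM (-1.10 ± 0.18, adjusted p = 0.00725), and its second bright probe gave -1.16. Itgb5, a vitronectin receptor chain, fell by 0.50 (adjusted p = 0.0225; 0.0835 without stiff replicate 2 and 0.0785 without stiff replicate 3), and its 2 other bright probes gave -0.65 and -0.83. Itgb1, the beta chain shared by the collagen receptors, overlapped between groups with a change of -0.20 (adjusted p = 0.373). Of 15 bright focal adhesion genes 4 fell, including Zyx, a zyxin recruited to tensed adhesions (-0.73 ± 0.13, adjusted p = 0.00904), and Tgfb1i1, which encodes Hic-5 (-0.72 ± 0.12, adjusted p = 0.00893), while the scaffold Pxn (-0.35, adjusted p = 0.077) and the tyrosine kinase Src (0.25, adjusted p = 0.118) did not pass. The integrin count was 1 without stiff replicate 2 or 3 and 2 without normal replicate 1 or 3, and the focal adhesion count was 2 without stiff replicate 2 or 3 or normal replicate 1 or 2.

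Targets of YAP and TAZ split. Ccn2, connective tissue growth factor, read 21938, 22902 and 31327 in normal culture, 13153, 13448 and 17223 on soft ECM and 14581, 13613 and 12518 on stiff ECM (-0.89 ± 0.15, adjusted p = 0.00847). Ankrd1, which also belongs to the Z-disc list, changed by -0.76 ± 0.14 (adjusted p = 0.0134), and Gadd45b, a stress-response gene, by -0.84 ± 0.11 (adjusted p = 0.00317). In all 5 of 19 bright targets fell and none rose as deposited, with a median change of -0.18. After quantile normalization 3 fell and 1 rose, and the median change was -0.05. As deposited, 3 fell without stiff replicate 2, without stiff replicate 3 or without normal replicate 2. Ccn1 (-0.34, adjusted p = 0.0629), Crim1 (0.26, adjusted p = 0.167) and Ajuba (0.26, adjusted p = 0.161) did not pass against normal, although all 3 were higher on stiff than on soft ECM, by 0.52, 0.87 and 0.66 (adjusted p = 0.038, 0.0121 and 0.0257).

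The Wnt genes the study follows did not pass against normal culture. The study reports Wnt ligands and pathway targets as higher on stiff than on soft ECM, in mRNA and protein, which is another comparison. Wnt1 read 229, 357 and 360 in normal culture and 354, 380 and 383 on stiff ECM, a change of 0.27 ± 0.18 (adjusted p = 0.327). Wnt3a, on a dim probe, read 37.2 to 73.8 in normal culture and 79.7 to 99.5 on stiff ECM (0.63 ± 0.25, adjusted p = 0.126). Wnt1 overlapped between groups and Wnt3a did not, on a probe close to the silent-gene gauge of 54.6 to 57.4 on stiff ECM. The beta-catenin target Axin2, a feedback inhibitor of the pathway, read 254, 266 and 352 in normal culture and 430, 397 and 369 on stiff ECM (0.47 ± 0.15, adjusted p = 0.0705), without overlap, and passed after quantile normalization (adjusted p = 0.0187). The hyaluronan receptor Cd44 changed by 0.07 ± 0.12 (adjusted p = 0.705). Vegfa, an angiogenic factor, changed by 0.01 ± 0.10 (adjusted p = 0.975) and was higher on stiff than on soft ECM by 0.49 (adjusted p = 0.0377). Over the pathway, 0 of 4 bright ligands, 1 of 8 receptors (Ryk, lower), 1 of 5 secreted antagonists (Dkk3, lower) and 1 of 9 targets (Myc, lower) passed, and each of these 3 calls ended without stiff replicate 2 (0.155, 0.0656 and 0.0569). The Ryk call also ended after quantile normalization (0.18) and without stiff replicate 3 (0.128), normal replicate 1 (0.0804) or normal replicate 2 (0.107), the Dkk3 call without stiff replicate 3 (0.0724) and the Myc call without normal replicate 2 (0.0516).

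DNA replication genes rose as a group. Of 15 bright replication genes 8 rose and none fell, against 3.86% of bright genes that rose, all 15 had a change above 0, and the median was 0.58. The silent-gene gauge also moved up. Of its 23 bright olfactory receptor genes 4 rose and none fell, 22 had a change above 0, and the median was 0.49. After quantile normalization 12 replication genes and 8 olfactory receptor genes rose. Mcm3, a subunit of the replicative helicase, read 673, 692 and 831 in normal culture, 1589, 1230 and 1488 on soft ECM and 1710, 1879 and 1737 on stiff ECM (1.28 ± 0.13, adjusted p = 0.00118). Its partner Mcm5 read 1179, 1102 and 1490, then 2618, 1898 and 2220, then 2434, 2350 and 2064 (0.87 ± 0.15, adjusted p = 0.00867), and Prim1, the primase that starts new strands, 414, 408 and 535, then 867, 761 and 936, then 983, 885 and 802 (0.98 ± 0.14, adjusted p = 0.00493). In these 3 genes every gel sample lay above every normal sample, and no replication gene passed stiff minus soft. Mcm7 changed by 0.58 (adjusted p = 0.0134) and Rrm2, the ribonucleotide reductase subunit of S phase, by 0.60 (adjusted p = 0.0113), and both calls ended without stiff replicate 2 (0.0578 and 0.052), that of Mcm7 also without normal replicate 2 (0.0524). Orc6 (0.03, adjusted p = 0.91) and Rrm1 (0.12, adjusted p = 0.48) did not pass. The count of rises was 5 without stiff replicate 1 or normal replicate 1, 3 without stiff replicate 2, 4 without normal replicate 2 and 11 without normal replicate 3.

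E2F factors switch these genes on in the cell cycle. The words TTTGGCGC and TTTCGCGC, on either strand, were present in the promoter windows of 4 of the 12 bright replication genes that have one, Mcm3, Mcm5, Mcm6 and Mcm7, and of 1.93% of bright genes. These shares set replication genes beside all bright genes, not genes that rose beside genes that did not. Mcm6 rose (limma adjusted p = 0.0352), a call lost without stiff replicate 1 (0.0695), stiff replicate 2 (0.123), normal replicate 1 (0.101) or normal replicate 2 (0.0786). Upstream stretches with the word in capitals are shown for 2 of these 4 genes, at chr8:75109330-75109389 on the plus strand for Mcm5 and chr1:128359719-128359778 on the minus strand for Mcm6.
Mcm5: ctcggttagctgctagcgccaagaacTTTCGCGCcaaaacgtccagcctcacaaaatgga
Mcm6: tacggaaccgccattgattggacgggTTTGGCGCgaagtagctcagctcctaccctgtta

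Genes of mitosis moved less. Of 12 bright ones 4 rose, and the count was 1 without stiff replicate 1, stiff replicate 3, normal replicate 1 or normal replicate 2, and 0 without stiff replicate 2. Plk1, a mitotic kinase, read 465, 589 and 610 in normal culture and 849, 879 and 909 on stiff ECM (0.67 ± 0.12, adjusted p = 0.0124; 0.052 without stiff replicate 2). The proliferation marker Mki67 (0.45, adjusted p = 0.266) and the mitotic kinase Aurka (0.02, adjusted p = 0.924) did not pass. Of 13 bright p53 targets and growth-arrest genes 4 fell and none rose, with 2 falls without stiff replicate 1 or normal replicate 1 and 1 without stiff replicate 2, stiff replicate 3 or normal replicate 2. Gadd45a, a damage-response gene, read 16658, 18145 and 18101 in normal culture and 10295, 9940 and 8192 on stiff ECM (-0.90 ± 0.13, adjusted p = 0.00455), and its relative Gadd45g, which is outside that list and was named for its size of change, 10738, 9309 and 10330 against 4396, 4407 and 3070 (-1.37 ± 0.14, adjusted p = 0.0016).

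Among immediate early genes, which serum and stretch induce within minutes, 2 of 17 bright ones rose, against 3.86% of bright genes, and 5 fell, against 9.85%. Egr1, a zinc-finger factor, read 8957, 7594 and 7826 in normal culture, 18790, 15924 and 17848 on soft ECM and 17532, 16712 and 17839 on stiff ECM (1.10 ± 0.10, adjusted p = 0.000963). Fos, a subunit of AP-1, read 2208, 1877 and 2093, then 3453, 2807 and 3607, then 4533, 4612 and 3762 (1.06 ± 0.12, adjusted p = 0.0025). Both kept their call without each stiff and normal sample in turn. Jun and Junb did not pass (-0.11 and 0.17, adjusted p = 0.538 and 0.398), and Ier5 (-0.71 ± 0.11, adjusted p = 0.00736) and Myc (-0.63 ± 0.13, adjusted p = 0.016; 0.0569 without stiff replicate 2 and 0.0516 without normal replicate 2) fell. The 5 falls numbered 3 without stiff replicate 1 or normal replicate 1, 1 without stiff replicate 2, and 2 without stiff replicate 3 or normal replicate 2.

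The ATF4 branch of the stress response, which answers amino acid shortage and unfolded protein by inducing transporters and synthetic enzymes, was lower. Of 28 bright genes in the ATF4 and CHOP arm and in amino acid synthesis and transport, 16 fell and 1 rose, and none of the 16 passed stiff minus soft. After quantile normalization 13 fell and 1 rose. Trib3, a pseudokinase induced by ATF4 and CHOP, read 6045, 5825 and 5637 in normal culture, 2233, 3981 and 2234 on soft ECM and 1823, 1788 and 2254 on stiff ECM (-1.59 ± 0.20, adjusted p = 0.00286). Ddit3, which encodes CHOP, read 6857, 5955 and 6496, then 3999, 4904 and 3713, then 3731, 3311 and 3230 (-0.91 ± 0.12, adjusted p = 0.00317). Mthfd2, a mitochondrial folate enzyme, had little spread, at 2786, 2689 and 2770 in normal culture and 1758, 1767 and 1745 on stiff ECM (-0.65 ± 0.09, adjusted p = 0.0048), and Gpt2, an alanine transaminase, changed by -0.67 ± 0.10 (adjusted p = 0.00486). In all 4 genes the gel samples lay below the normal samples.

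Not every target followed. Asns, asparagine synthetase, fell by 0.46 (adjusted p = 0.0118; 0.0587 without stiff replicate 2), while the serine enzyme Psat1 changed by 0.04 (adjusted p = 0.78) and the glutamine transporter Slc38a2 by 0.10 (adjusted p = 0.583). Slc7a11, the cystine transporter, rose by 0.62 (adjusted p = 0.0315), a call that was lost without any 1 of the stiff replicates or without normal replicate 1 or 2 (0.0506 to 0.11). The falls among amino acid genes, 10 with all samples, numbered 2 without stiff replicate 2, 4 without stiff replicate 3 and 4 without normal replicate 2, and those in the ATF4 and CHOP arm, 6 with all samples, numbered 2 without stiff replicate 2 and 3 without stiff replicate 3. The composite site TTGCATCA, to which ATF4 and C/EBP factors bind as a pair, was found on either strand in the promoter windows of 7 of the 25 bright genes with one, against 0.715% of bright genes. These shares set genes listed for the ATF4 response beside all bright genes, not genes that fell beside genes that did not. The 7 did not all fall. Among them Slc7a11 rose, and Got1, Nupr1 and Vldlr did not pass (limma adjusted p = 0.0636, 0.104 and 0.0866). The site is shown in capitals for 2 that fell. One is Chac1, a glutathione-degrading enzyme (-0.88, adjusted p = 0.0287; 0.0844 without stiff replicate 2, 0.0909 without stiff replicate 3 and 0.0845 without normal replicate 1), at chr2:119351023-119351082 on the plus strand. The other is Fgf21, a hormone of nutrient stress (-0.81 ± 0.15, adjusted p = 0.0114; 0.0518 without stiff replicate 2), at chr7:45615596-45615655 on the minus strand.
Chac1: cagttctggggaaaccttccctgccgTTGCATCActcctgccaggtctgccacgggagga
Fgf21: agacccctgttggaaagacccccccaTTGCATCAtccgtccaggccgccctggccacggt

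**Figure D4:**
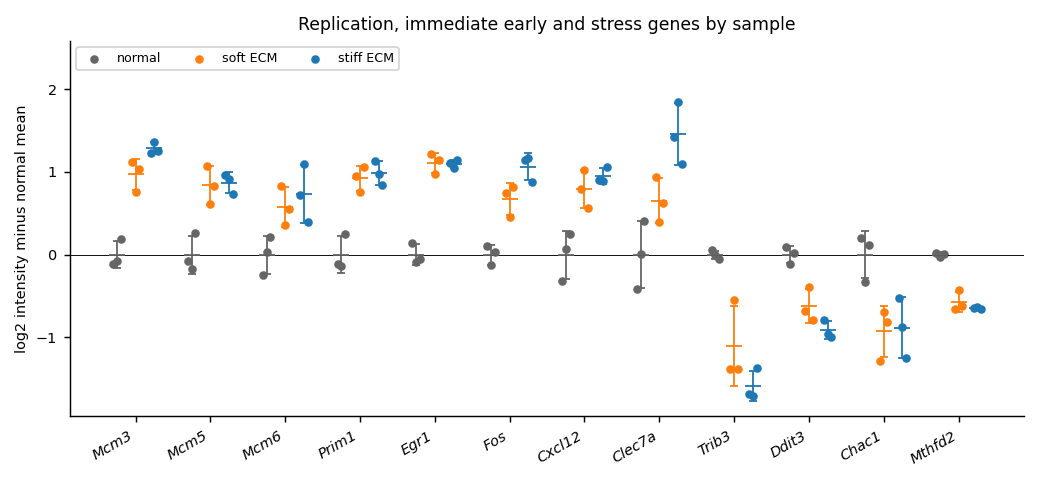
Log2 intensity minus the normal mean for 12 replication, immediate early, immune and ATF4-related genes in the 9 samples, with points for samples and bars for the mean ± SD of 3. Gel samples lie above normal for Mcm3, Mcm5, Prim1 and Egr1 and below normal for Trib3, Ddit3, Chac1 and Mthfd2, and stiff and soft samples overlap for Egr1, Prim1 and Chac1.

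Of 19 bright ER chaperone genes 5 fell and none rose, 14 had a change below 0, and in 11 all stiff samples lay below all normal samples. After quantile normalization 4 fell and 2 rose. Those that fell as deposited included Pdia4, a disulfide isomerase (-0.71 ± 0.09, adjusted p = 0.00337), and Herpud1, which serves ER-associated degradation (-0.61 ± 0.10, adjusted p = 0.00792). This count was 3 without stiff replicate 1 or 3 or normal replicate 2 and 2 without stiff replicate 2. The master chaperone Hspa5 changed by 0.30 (adjusted p = 0.148) and Hsp90b1 by -0.23 (adjusted p = 0.194). Hspa4, an exchange factor for the Hsp70 chaperones, rose most among 18 bright heat shock genes, at 1156, 1276 and 1168 in normal culture, 1457, 1511 and 1258 on soft ECM and 2567, 3319 and 3005 on stiff ECM (1.30 ± 0.12, adjusted p = 0.00108). Hspa4 was also higher than on soft ECM, by 1.07 (adjusted p = 0.012). Its relative Hspa4l rose by 0.51 (adjusted p = 0.0443), a call lost without any 1 of the stiff replicates or without normal replicate 1 or 2 (0.0627 to 0.146). The heat-inducible Hspa1a (0.10, adjusted p = 0.585) and the chaperone Hsp90aa1 (-0.02, adjusted p = 0.872) did not pass.

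**Figure D5:**
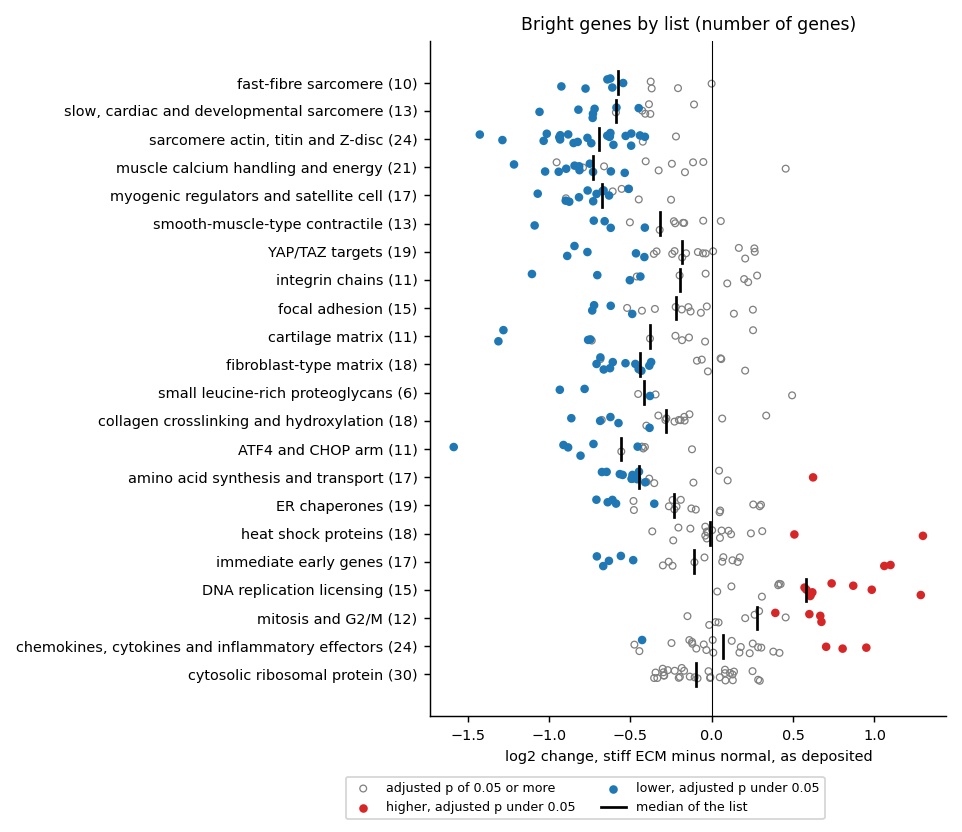
Log2 change (stiff ECM minus normal, as deposited) of the bright genes of 22 lists, with the number of genes beside each name. Filled points passed an adjusted p of 0.05 in limma, red for higher and blue for lower, open points did not, and black bars are list medians. The 5 muscle lists have medians from -0.58 to -0.73, DNA replication has a median of 0.58, and no cytosolic ribosomal protein gene of 30 passed.

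Inflammatory genes rose in a few cases. Of 24 bright ones 3 rose and 1 fell, and after quantile normalization 8 rose and 2 fell. The 3 rises as deposited numbered 2 without any 1 of the stiff replicates or without normal replicate 1 or 2, and 5 without normal replicate 3. Cxcl12, a chemokine of stromal cells, read 10970, 14376 and 16287 in normal culture, 23752, 27724 and 20178 on soft ECM and 25642, 25294 and 28538 on stiff ECM (0.95 ± 0.15, adjusted p = 0.00736). Cxcl5, which draws neutrophils, read 24023, 25587 and 27797 in normal culture and 39019, 41832 and 45147 on stiff ECM (0.70 ± 0.11, adjusted p = 0.00593). In both genes the stiff samples lay above all normal samples, whereas Il6 (-0.14, adjusted p = 0.52) and Ptgs2, the inducible cyclooxygenase (-0.12, adjusted p = 0.672), did not pass. Of the 8 bright macrophage genes Lyz1 and Itgam rose and Fcer1g fell, and none of these 3 calls held without stiff replicate 2 (0.0868, 0.0817 and 0.102) or without stiff replicate 3 (0.0771, 0.0573 and 0.137). The Lyz1 call also ended without normal replicate 1 (0.0648), that of Itgam without normal replicate 2 (0.0655), and that of Fcer1g without stiff replicate 1 (0.0564), normal replicate 2 (0.0835) or normal replicate 3 (0.0679). The summed macrophage markers read 5160 to 6529 in normal culture and 4409 to 5125 on stiff ECM.

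The other large rises by the naming rule included receptors and secreted proteins. Clec7a, the beta-glucan receptor dectin-1 of myeloid cells, read 512, 685 and 899 in normal culture, 1301, 894 and 1052 on soft ECM and 1821, 2450 and 1456 on stiff ECM (1.45 ± 0.23, adjusted p = 0.00736). Lilrb4a, an inhibitory immune receptor, read 463, 354 and 415, then 420, 621 and 474, then 898, 927 and 839 (1.12 ± 0.16, adjusted p = 0.0048), and was also higher on stiff than on soft ECM by 0.83 (adjusted p = 0.0321). The stiff samples stood above all others for both, beside the macrophage list in which Lyz1 and Itgam rose and Fcer1g fell, and the part of other cells in these 2 values was not tested. Wfdc21, a small secreted protein of the whey acidic protein family, rose most, from 251, 302 and 409 to 982, 1017 and 936 (1.64 ± 0.18, adjusted p = 0.00199), with soft ECM at 1174, 1014 and 824. C8b, a chain of complement C8, rose by 1.34 ± 0.25 (adjusted p = 0.0124; 0.052 without stiff replicate 2), and Coch, the matrix protein cochlin, by 1.16 ± 0.24 (adjusted p = 0.019; 0.0658 without stiff replicate 2 and 0.0657 without stiff replicate 3).

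Among the other large falls, Angptl7, a secreted angiopoietin-like protein of cornea and cartilage, read 739, 762 and 793 in normal culture, 178, 254 and 174 on soft ECM and 215, 201 and 242 on stiff ECM (-1.80 ± 0.16, adjusted p = 0.000963). Arg1, arginase, read 1182, 1052 and 1338, then 533, 445 and 709, then 476, 458 and 304 (-1.55 ± 0.21, adjusted p = 0.00353). In both the gel samples lay clear of normal. Car6, a secreted carbonic anhydrase, had the largest fall, from 728, 744 and 760 to 197, 188 and 197 (-1.94 ± 0.37, adjusted p = 0.0137; 0.0519 without stiff replicate 2), with soft samples spread at 139, 561 and 251. Acot2, a mitochondrial acyl-CoA thioesterase, changed by -1.35 ± 0.17 (adjusted p = 0.00275) and Msmp, a secreted microseminoprotein, by -1.58 ± 0.33 (adjusted p = 0.0185; 0.0561 without normal replicate 1), while a second bright probe of Msmp gave -1.78.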

How the data were processed

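Total RNA of the 9 samples was amplified, labelled with Cy5 and hybridised to Phalanx mouse arrays. The authors removed flagged and control spots, scaled arrays by the median and averaged duplicate arrays in Rosetta Resolver (version not stated). They compared samples in pairs with its error-weighted model, under limits on both fold change and p, which was not repeated here. Deposited values are linear intensities from -8.27 to 70058, with sample medians that still differed. All 9 sample columns were mapped, and 0 were left over. Depth does not apply to arrays, and precision is limited by 3 samples a group.

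Of 26423 probes, 21876 had 1 gene symbol, 0 several and 4547 none in the platform annotation, and 21850 of those with a symbol were found in a RefSeq gene table (GRCm38.p6). The 1481 probes (5.6%) at or below 0 in any sample were left out. Log2 intensities were fitted with limma 3.58.1 in R 4.3.3 (3 group means over 9 samples, intensity trend, two-sided moderated test, Benjamini-Hochberg over 24942 probes). Figures and motif searches used Python 3.11.15, pandas 2.3.3 and matplotlib 3.10.9, and the fit was tested on simulated data.

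A gene was read from its brightest probe. Named were the 12 largest rises and 12 largest falls among bright genes that passed as deposited and after quantile normalization with stiff and normal samples not overlapping, up to 3 called genes with the smallest p in each of the 47 lists other than olfactory receptors, and the chondrocyte and Wnt genes the study follows: 129 genes, of which 121 passed. Other list members were named after their values were seen. The groups compared, lists and rules were chosen with earlier results of these data known, and 59 of 818 list genes had no probe. Alternatives were quantile, median and cyclic loess scaling, bright probes only, an offset of 32, no trend, a fit to 2 groups, a replicate block, sample weights, a Student's t-test and leaving out each stiff or normal sample.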

Additional observations from a re-analysis of the deposited data

How the results depend on the processing

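Main counts are 2478 calls over all probes, 1451 over bright probes (415 higher and 1036 lower), and 26 of the named genes in stiff minus soft. In the same order, quantile normalization gave 4074, 2189 (1117 higher) and 43. Median centring gave 5561, 3247 (2921 lower) and 44, and cyclic loess 3937, 1078 higher and 40. A fit without an intensity trend gave 1226, 547 (152 higher and 395 lower) and 12. Stiff and normal samples alone gave 1112 and 787 (205 higher and 582 lower). Sample weights, whose estimation stopped before convergence, gave 202, 145 (31 higher and 114 lower) and 78. A Student's t-test was also run, without a limit on fold change. The study names this test for comparing a pair of groups, whereas its arrays were compared in Rosetta Resolver. The t-test called 5049 probes at an unadjusted p under 0.05. After Benjamini-Hochberg it called 20 in all, 15 bright (1 higher and 14 lower) and 5 in stiff minus soft. With the replicate block the counts were 1558, 866 (265 higher and 601 lower) and 16. The numbers do not pair the samples: deviations of same-numbered stiff and normal samples correlated at 0.13, 0.03 and -0.10, and 1 of 3 stiff samples correlated best with its own number.

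Leaving out 1 sample gave 541 to 4092 calls over all probes, 317 to 1511 over bright probes, 94 to 752 higher, 223 to 889 lower and 0 to 48 in stiff minus soft. Each of these 5 counts was lowest without stiff replicate 2. Of the 121 named genes that passed, 116 stayed past the threshold after quantile normalization, 113 after median centring, 113 after cyclic loess, 84 without the trend, 107 with the block, 41 with weights and 6 in the t-test, and 63 to 118 without 1 sample. None changed sign in any setting run. The causes were not tested beyond fewer samples in the fit. With 3 samples a group the precision is limited.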

Other observations

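Of 60 bright oxidative phosphorylation genes 1 rose and 7 fell as deposited, and 6 rose and 2 fell after quantile normalization, while the median change was -0.22 and -0.08. Among all bright genes 3.86% rose and 9.85% fell as deposited, the shares to set beside each count in this section. The 7 falls numbered 3 without stiff replicate 1 or normal replicate 3 and 1 without any other sample of the 2 groups. Of 60 bright mitochondrial ribosomal protein genes 1 rose and 8 fell, against 3 and 4 after quantile normalization, and the falls numbered 1 without stiff replicate 2, 2 without stiff replicate 3 or normal replicate 1, 3 without normal replicate 2 and 4 without normal replicate 3. Mrpl48, a protein of the large mitochondrial subunit, read 4053, 3807 and 3868 in normal culture, 3955, 3891 and 4111 on soft ECM and 2623, 2281 and 2634 on stiff ECM (-0.64 ± 0.09, limma adjusted p = 0.0048), and its second bright probe gave -0.60. It was 1 of 2 bright genes of the list that passed both stiff minus normal and stiff minus soft. Of 33 bright proteasome genes 5 fell, and after quantile normalization 2 rose and 3 fell, where 10.5% of bright genes rose and 9.91% fell. The 5 falls numbered 0 without stiff replicate 2, 1 without stiff replicate 3 and 3 without normal replicate 1 or 2. Of 17 bright lysosome genes 1 rose, Gla, the alpha-galactosidase, from 5346, 4926 and 5871 in normal culture to 8892, 8091 and 8618 on stiff ECM (0.67 ± 0.10, adjusted p = 0.00593).

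Of 21 bright hypoxia and glycolysis genes 1 fell and 1 rose. Car9, a hypoxia-induced carbonic anhydrase, read 26452, 26267 and 27313 in normal culture and 19014, 17860 and 19020 on stiff ECM (-0.52 ± 0.08, adjusted p = 0.00593), while Pdk1, the kinase that restrains pyruvate dehydrogenase, rose from 887, 797 and 801 to 1253, 1308 and 1243 (0.62 ± 0.11, adjusted p = 0.0124; 0.0578 without stiff replicate 2). Pdk1 was also higher on stiff than on soft ECM, by 0.76 (adjusted p = 0.0158). Of 15 bright cholesterol genes 2 rose and 1 fell, and 4 rose and 1 fell after quantile normalization. As deposited the synthetic enzymes Cyp51 and Lss rose (0.71 and 0.54, adjusted p = 0.0136 and 0.0292), Ebp fell (-0.65, adjusted p = 0.0221), and none of these 3 calls held without stiff replicate 2 (0.0583, 0.123 and 0.0615). That of Lss also ended without stiff replicate 3 (0.0845), normal replicate 1 (0.0541) or normal replicate 2 (0.0883), and that of Ebp without stiff replicate 3 (0.0732) or normal replicate 2 (0.063). Camp, a neutrophil antimicrobial peptide, read 339, 466 and 615 in normal culture, 456, 524 and 461 on soft ECM and 216, 218 and 240 on stiff ECM (-1.04 ± 0.19, adjusted p = 0.012), beside the neutrophil gene Ltf, which rose by 0.73 (adjusted p = 0.0314; 0.0624 to 0.098 without any 1 of the stiff replicates or without normal replicate 2). Krt19, a keratin, was higher on stiff than on soft ECM by 1.26 (adjusted p = 0.0193) and did not pass against normal (-0.47, adjusted p = 0.148).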
